A study of Rattus norvegicus with 138 samples.

Results

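The myogenic regulatory factors and the paired-box genes of the muscle lineage were followed through volumetric muscle loss (VML) of the rat tibialis anterior (TA) muscle. The 6 genes, Pax7, Pax3, Myf5, Myod1, Myog and Myf6, were chosen by symbol from the 16181 symbols of the expression table, and all 6 had values. Muscles came from male Lewis rats, an inbred strain, aged about 4 months. VML is a traumatic or surgical loss of muscle too large to heal, modelled here with a 6-mm punch through the belly of the left TA. Injured muscles were either not repaired or filled with a minced muscle graft (MMG) cut from the rat's own excised tissue, and were harvested at 3, 7, 14 or 28 days post injury (DPI). Contralateral muscles were the unoperated TA of the same rats. Some rats of every day and repair were labelled as running, with no running protocol in the sources used here. Control muscles were the left and right TA of 2 rats, labelled as sham at day 0 and described by the study as unoperated. They carry another series number than all operated rats, so the effect of the series and that of the operation on a comparison with control cannot be told apart.

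Muscle regenerates from satellite cells, stem cells that lie beneath the sheath of each fibre and carry the paired-box factor Pax7. Pax3, its close relative, marks muscle precursors of the embryo and some adult satellite cells. The myogenic regulatory factors are helix-loop-helix proteins that pair with E proteins and bind the E-box, a short DNA motif. Myf5 and Myod1 commit cells to the lineage and are present in dividing myoblasts, Myog (myogenin) switches myoblasts to differentiation and fusion, and Myf6 (MRF4) acts late and is the main factor of adult fibres. Myog is also kept low by the motor nerve and returns in denervated fibres.

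The promoters of 3 members are shown because Myog stood farthest from its control level, Myf6 was the most abundant member at rest, and Myf5 is the neighbour of Myf6 on the chromosome. Each run is the 250 bases before the RefSeq start of the gene on GRCr8, on the strand of the gene, with E-boxes (CANNTG, which reads the same on both strands) in capitals. The Myog promoter is chr13:48297226-48297475 on the plus strand, the Myf6 promoter chr7:44701314-44701563 on the minus strand and the Myf5 promoter chr7:44692639-44692888 on the minus strand.
Myog: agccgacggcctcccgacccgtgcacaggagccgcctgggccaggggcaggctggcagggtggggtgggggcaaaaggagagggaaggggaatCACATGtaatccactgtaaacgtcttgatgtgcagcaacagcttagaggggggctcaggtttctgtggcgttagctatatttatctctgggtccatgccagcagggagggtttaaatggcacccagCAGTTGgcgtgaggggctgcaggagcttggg
Myf6: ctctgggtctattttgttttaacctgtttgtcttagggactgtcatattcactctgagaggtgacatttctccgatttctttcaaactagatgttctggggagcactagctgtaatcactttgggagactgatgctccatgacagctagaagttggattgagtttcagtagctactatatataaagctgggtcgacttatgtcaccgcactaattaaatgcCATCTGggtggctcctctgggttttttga
Myf5: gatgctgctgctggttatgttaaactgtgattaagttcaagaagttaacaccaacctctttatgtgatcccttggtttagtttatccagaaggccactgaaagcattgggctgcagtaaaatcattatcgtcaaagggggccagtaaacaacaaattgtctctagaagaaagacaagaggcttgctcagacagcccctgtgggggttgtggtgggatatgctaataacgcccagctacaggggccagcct
The Myog window held 2 E-boxes, CACATG at bases 157 to 152 before the start and CAGTTG at bases 31 to 26. The Myf6 window held 1, CATCTG at bases 29 to 24, and the Myf5 window held none. Of the windows not printed, that of Pax3 held 1 (CACGTG, bases 92 to 87) and that of Pax7 none. Among 33469 rat promoters of this length 65.5% held at least 1 E-box and 30.8% at least 2, so the motif is common and its presence here is a description only. Myf5 and Myf6 lie on the same strand of chromosome 7, with 8675 bases between their starts.

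Expression was measured by RNA-Seq of whole muscle and is given in TPM (transcript abundance scaled to gene length and to the library total), as the authors deposited it. Depth is unknown from TPM. Libraries that could not be placed in a group from their labels numbered 9, and 13 more with fewer than 7000 symbols above 1 TPM were dropped (901 to 5712 symbols, all at 3 or 7 DPI, 8 of them from running rats). The 116 kept libraries had 7866 to 10948 such symbols and gave 114 muscles of 78 rats in 31 groups: 4 control, 34 contralateral and 76 injured muscles. In whole muscle, fewer cells of a type and less RNA per cell cannot be told apart. The summed TPM of 16 myofibre markers was 256787 to 315397 in control muscle, 24975 to 95180 in injured muscle at 3 DPI and 169306 to 244966 at 28 DPI. The sum of 14 leukocyte markers was 18.6 to 43.2 in control muscle, 4146 to 8057 at 3 DPI and 250 to 1398 at 28 DPI, and that of 10 fibroblast markers was 91.6 to 272 in control muscle and 7774 to 31910 at 7 DPI. No marker of these lists was at 0 in every muscle of a group set, and the part of these changes in the member results was not tested.

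At rest the 6 members formed a ladder led by the late factor. Myf6 was at 54.43, 108.48, 128.02 and 141.43 TPM in the 4 control muscles and made up a median of 72.7% of the summed TPM of the members. Myod1 was at 19.51, 28.34, 33.31 and 43.12 TPM, below every Myf6 value. Myog followed at 2.44, 4.55, 5.30 and 8.0 TPM. Its range lay below that of Myod1 and just above that of Myf5. Myf5 was at 0.48, 1.62, 2.02 and 2.30 TPM and Pax7 at 0.33, 0.39, 0.47 and 0.83 TPM, so these neighbours overlapped through 1 muscle. Pax3 was lowest, at 0.03, 0.04, 0.06 and 0.11 TPM. The right muscle of control rat 38 was the lowest control muscle for Myf5, Myod1, Myog and Myf6. Its library also had the fewest symbols above 1 TPM of all kept libraries, 7866 against 8760 to 8914 in the other control muscles. The part of this in its low values was not tested.

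**Figure D1:**
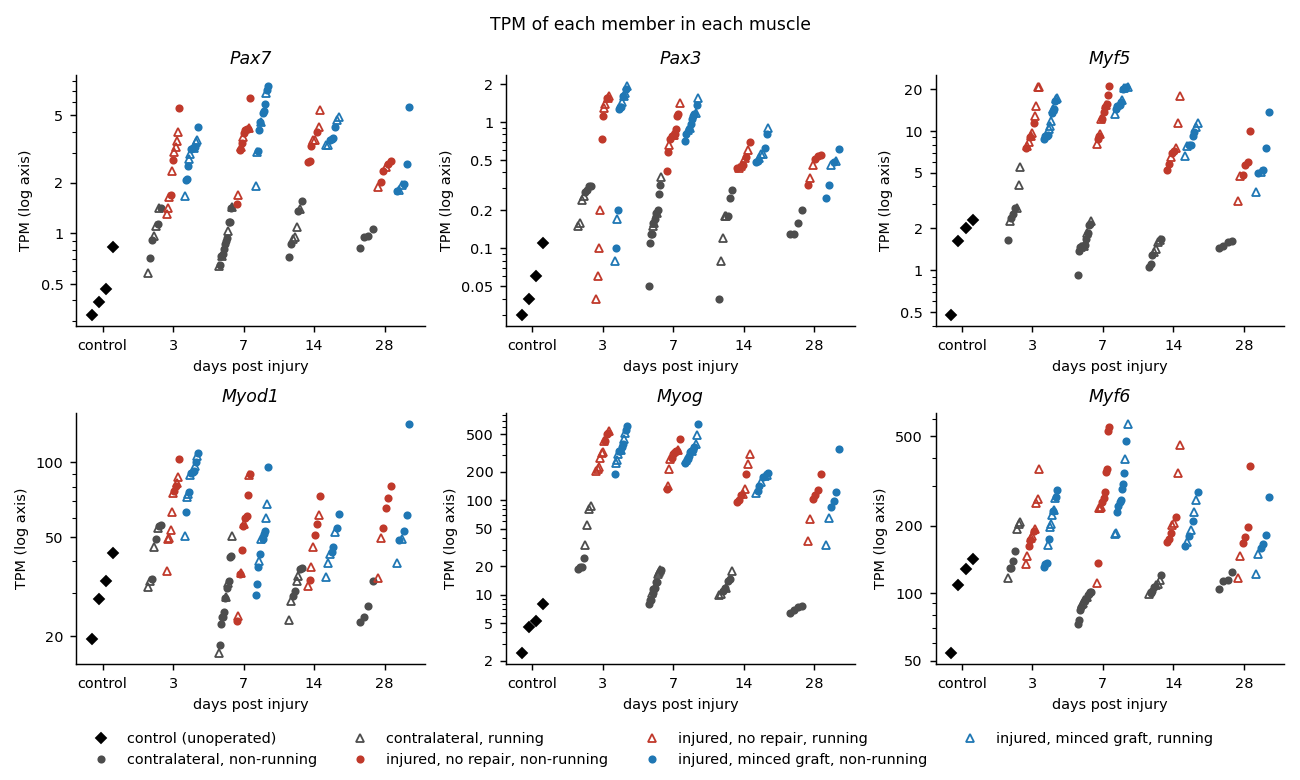
TPM (log axis) of Pax7, Pax3, Myf5, Myod1, Myog and Myf6 in each of 114 muscles, by days post injury. Diamonds are control muscles, grey symbols contralateral, red injured without repair and blue injured with minced graft, with filled circles for non-running and open triangles for running rats, ordered by value within a kind. Every injured muscle lay above the highest control value of 8.0 TPM for Myog, while Pax3 at 3 DPI fell into a high and a low cloud.

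Injury put Myog at the head of this order. At 3 DPI Myog held a median of 53.8% of the members' summed TPM (45.8% to 66.8% over 24 injured muscles) against 3.03% in control muscle, and Myf6 held 31.2%. By 28 DPI Myog was at 29.6% and Myf6 at 51.7% over 12 muscles. A ratio of 2 genes within a library does not depend on how libraries were scaled. Myog per Myf6 was 0.0355 to 0.0737 in control muscle and 0.0556 to 0.430 in contralateral muscle. In injured muscle it was 1.12 to 3.20, 0.623 to 1.80, 0.548 to 1.10 and 0.275 to 1.32 from the earliest to the latest day. The injured muscles of 3, 7 and 14 DPI thus lay above all contralateral ones in this ratio, and those of 28 DPI overlapped them. Myog per Myod1 was 0.106 to 0.282 in control muscle and 0.224 to 2.58 in contralateral muscle. In injured muscle it was 2.78 to 7.17 at 3 DPI and 3.55 to 10.1 at 7 DPI, above both, and 1.56 to 6.78 at 14 DPI and 0.853 to 2.48 at 28 DPI, which overlap contralateral muscle.

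To ask how far injury without repair moved each member from resting muscle, non-running injured muscles (3, 8, 4 and 4 at 3, 7, 14 and 28 DPI) were compared with the 4 control muscles. Differences are on the log2(TPM + 1) scale, which understates those of low genes, and were tested with limma over 11328 genes. A gene was called at a Benjamini-Hochberg adjusted p under 0.05 and a log2 difference beyond 1. Members were called in 16 of 24 tests, all higher. The share of all genes called was 52.6%, 48.1%, 25.5% and 21.3% on these days, so a call alone sets a member little apart and the sizes carry the comparison. The median log2 difference of all tested genes was 0.96, 0.91, 0.53 and 0.52 on these days, and 0.09, 0.08, 0.02 and 0.04 after median-of-ratios size factors.

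Myog, the differentiation factor, rose most. It was at 423.07, 509.86 and 517.56 TPM in the 3 injured muscles of 3 DPI, a mean 95.3 times that of control muscle, with a log2 difference of 6.39 ± 0.35 (SE, limma adjusted p = 1.12e-29). At 7 DPI it ran from 131.19 through a median of 323.7 to 444.55 TPM (log2 difference 5.70). It was still 96.62 to 188.40 TPM at 14 DPI (4.41) and 103.14 to 189.77 TPM at 28 DPI (4.51). No injured muscle overlapped a control muscle on any day, and these 4 calls held with size factors.

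Among the earlier factors Myf5 rose on all 4 days. Its TPM was 7.61, 9.12 and 11.39 at 3 DPI, and 8.78 to 21.12 with a median of 14.3 at 7 DPI, where its log2 difference from control was highest (2.56 ± 0.21, adjusted p = 1.04e-19). It was 5.23 to 7.20 TPM at 14 DPI (log2 difference 1.54) and 4.87 to 9.97 TPM at 28 DPI (1.57). Every injured muscle stood above the control maximum of 2.30 TPM, and the calls held with size factors. Myod1, by contrast, was called only at 3 DPI (1.5 ± 0.32) and 28 DPI (1.15 ± 0.30). It was at 76.82, 80.45 and 103.21 TPM at 3 DPI, and 22.98 to 90.24 TPM at 7 DPI, where it overlapped control muscle (0.77, adjusted p = 0.00497 with a fold under the limit). Size factors ended both Myod1 calls (0.37 and 0.49), and at 28 DPI leaving out the right muscle of control rat 38 (0.95) or keeping all labelled libraries (adjusted p = 0.0731) did so too.

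Pax7, the satellite cell factor, rose on all 4 days, by 1.43, 1.64, 1.47 and 1.19 on the log2 scale. It was at 1.69, 2.71 and 5.57 TPM at 3 DPI and 1.5 to 6.36 TPM at 7 DPI, with a median of 4.02 there, and at 2.02, 2.34, 2.59 and 2.68 TPM at 28 DPI. All injured muscles lay above the control maximum of 0.83 TPM. With size factors the calls at 3 DPI (0.86) and 28 DPI (0.95) fell short of the limit. Myf5 per Pax7, a ratio of a commitment to a stem cell factor, was 1.23 to 4.91 in control muscle and 2.04 to 7.96 in injured muscle at 3 DPI, which overlap.

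Myf6, the factor of mature fibres, was called at 7 DPI (1.61 ± 0.25) and 28 DPI (1.08 ± 0.29), not at 3 or 14 DPI. It was at 161.91, 172.66 and 188.69 TPM at 3 DPI, when the summed myofibre markers were lowest, and at 135.81 to 548.46 TPM at 7 DPI with a median of 314.9. Size factors ended both calls (0.53 and 0.41), and that at 28 DPI was also lost without the right muscle of control rat 38 (0.78) or without rat 81 (0.82), and with all labelled libraries kept (adjusted p = 0.145). Pax3 was called on no day on this scale (0.99, 0.76, 0.53 and 0.48), since its TPM were below the pseudocount in control muscle. It was at 0.73, 1.12 and 1.54 TPM at 3 DPI and 0.32 to 0.55 TPM at 28 DPI, above the control maximum of 0.11 TPM in every injured muscle of these groups. With a pseudocount of 0.1 TPM its log2 differences were 2.91, 2.48, 1.98 and 1.86, each called, where 61.5%, 58.2%, 39.5% and 37.6% of all genes were. Pax3 passed the filter only through groups of injured muscle, so these calls are a description and no separate evidence. On the main scale Pax3 passed the limit at 3 DPI without the left muscle of control rat 37 (1.01) or without rat 18 (1.13).

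**Figure D2:**
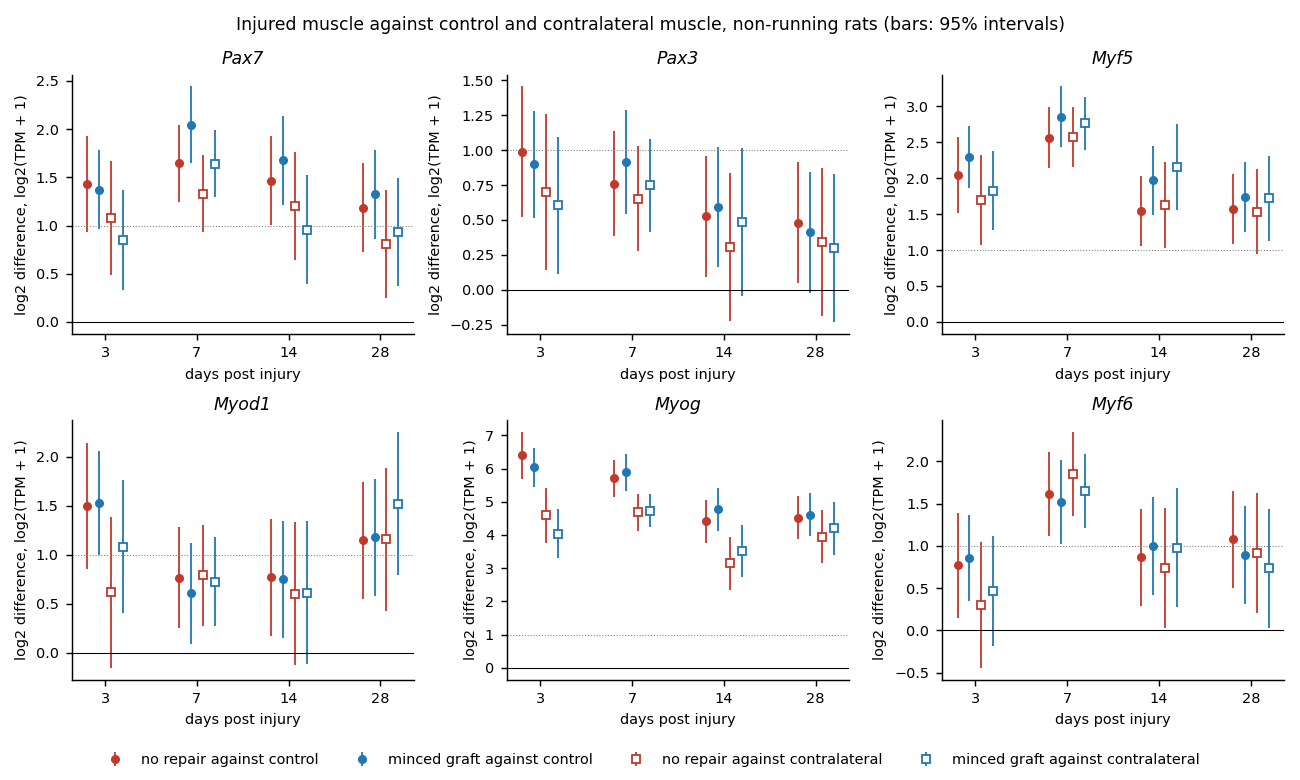
Log2 differences on the log2(TPM + 1) scale of injured muscle against control (filled circles) and contralateral muscle (open squares) in non-running rats, without repair (red) and with minced graft (blue), by days post injury. Bars are 95% intervals from limma, the solid line is 0 and the dotted line the limit of 1. Myog lay far above the limit in all comparisons, from 3.15 to 6.39, while Pax3 stayed under it.

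Contralateral muscle belongs to the series of the injured muscle and again set Myog and Myf5 farthest from it. Without repair, members were called in 13 of 24 tests against contralateral muscle, all higher, where 38.2%, 47.4%, 21.1% and 13.3% of all genes were called at 3, 7, 14 and 28 DPI. Myog differed by 4.59, 4.68, 3.15 and 3.94, and Myf5 by 1.69, 2.57, 1.63 and 1.53. These 8 calls were the ones left with size factors, where 34.2%, 31.6%, 14.3% and 8.73% of all genes were called. Pax7 was called at 3, 7 and 14 DPI (1.08, 1.33 and 1.20), Myf6 at 7 DPI (1.85) and Myod1 at 28 DPI (1.16). The Pax7 call at 3 DPI was lost without the injured (0.73) or contralateral (0.92) muscle of rat 17 and with only the compared groups fitted (adjusted p = 0.0558). The Myod1 call was lost without the contralateral muscle of rat 73 (1.00, adjusted p = 0.0937) and with all labelled libraries kept (adjusted p = 0.245), where Myod1 was called at 7 DPI instead (1.92). Among the 34 rats with both muscles, of either repair and running label, Myog, Myf5, Pax7, Pax3 and Myod1 were each higher on the injured side in all 8, 14, 8 and 4 rats of the successive days. Myf6 was higher in 6 of 8 rats at 3 DPI and in every rat of the later days. Within rats the median log2 difference of Myog was 3.62, 4.70, 3.45 and 3.92 on these days. That of Myod1 was 0.94, 0.93, 0.84 and 1.21, and that of Pax3 0.99, 0.64, 0.42 and 0.37. All tested genes had a median of 0.54, 0.91, 0.50 and 0.38 between the groups without repair. The share of all genes higher in every rat was not counted, so these counts alone do not set members apart. The paired rats of 3 DPI were all numbered below 50, the range with high Pax3 at 3 DPI.

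In running rats the same comparison called members in 21 of 36 tests at 3, 7 and 14 DPI. The share of all genes was 40.1%, 43.1% and 26.3% without repair and 44.9%, 44.3% and 24.2% with graft on these days. Size factors left 12 of the 21, and of all genes they called 36.8%, 34.4% and 18.6% without repair and 39.4%, 33% and 19.1% with graft. Without repair they ended the calls of Myf5 at 3 DPI (0.65), Pax7 at 7 and 14 DPI (0.79 and 0.75) and Myf6 at 7 and 14 DPI (0.19 and 0.72). With graft they ended those of Myod1 at 3 and 7 DPI (0.55 and 0.28) and of Pax7 and Myf6 at 7 DPI (0.51 and 0.81). Keeping all labelled libraries ended both Myf6 calls without repair (adjusted p = 0.235 and 0.119) and the Myod1 call with graft at 7 DPI (adjusted p = 0.0866). At 7 DPI the Myf6 call without repair was also lost without rat 3, 4 or 32 (0.99 to 1.00), and with graft the Pax7 call was lost without either muscle of rat 8 (0.86 and 0.96) and the Myod1 call without its contralateral muscle (0.68). At 3 DPI the Pax7 difference without repair (0.96) passed the limit without the contralateral muscle of rat 1 (1.12).

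The 2 uninjured kinds of muscle were then set against each other. Contralateral Myog was raised early: in non-running rats at 3 DPI it was at 18.65, 19.45, 19.64 and 24.27 TPM against 2.44 to 8.0 in control muscle, a log2 difference of 1.90 (adjusted p = 1.44e-06). It was 7.89 to 18.36 TPM at 7 DPI (1.09) and 10.92 to 14.80 TPM at 14 DPI (1.26), both called, and 6.36 to 7.63 TPM at 28 DPI (0.49), not called and within the control range. These were the 3 calls among 24 tests of the members, where 7.15%, 1.04%, 1.03% and 0.512% of all genes were called. The calls at 7 and 14 DPI were lost without the right muscle of control rat 38 (0.85, and 1.01 at an adjusted p of 0.0646) and with control muscles averaged per rat (1.01 and 1.18), and that at 14 DPI also without the contralateral muscle of 13.91 TPM (1.20, adjusted p = 0.0529) and with only the compared groups fitted (adjusted p = 0.0863). With all labelled libraries kept both were lost (adjusted p = 0.452 and 0.692). Within the operated series, contralateral Myog at 28 DPI was lower than at 3 DPI by 1.41 ± 0.33 (adjusted p = 0.000512), with no overlap. With all labelled libraries kept this call was lost (adjusted p = 0.274). It was the 1 member called in 18 tests of later contralateral days against 3 DPI, a contrast added after the values were seen, in which 2.65%, 3.35% and 1.75% of all genes were called at 7, 14 and 28 DPI. At 3 DPI the summed leukocyte markers of these contralateral muscles were 83.4 to 304 TPM, above the control range, and the myofibre markers 207326 to 239889 TPM, below it.

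In injured muscle of non-running rats, with either repair, the means of Myog and Myod1 were highest at 3 DPI and those of Myf5, Pax7 and Myf6 at 7 DPI. This order describes the means, since no member was called between 3 and 7 DPI with every muscle in the model, and it differed in running rats. Their Pax7 without repair had a mean of 3.22 TPM at 7 DPI and 4.21 TPM at 14 DPI, and their Myog with graft 355 TPM at 3 DPI and 369.8 TPM at 7 DPI. Without repair their Myf5 had a mean of 13.1 TPM at 3 DPI and 11.3 TPM at 7 DPI. Their Myf6 there had 208.5 TPM at 7 DPI and 301.4 TPM at 14 DPI. Thus Myf5, Pax7 and Myf6 were not highest at 7 DPI in running rats without repair. Of 36 tests of a later against the preceding day in non-running rats, 3 were called. From 7 to 14 DPI Myf5 fell by 1.02 on the log2 scale and Myog fell by 1.29 without repair, and Myog fell by 1.11 with graft. Of all genes 6.82% and 10.8% were called in these 2 contrasts, and 7.34% and 0.459% without repair and 6.94% and 1.36% with graft at 7 and 28 DPI. None of the 3 remained with size factors (log2 differences of -0.66, -0.90 and -0.73). The Myf5 call was also lost without any of 5 single muscles (lowest size -0.94) and with ranges of rat number in the model (-0.84). Keeping all labelled libraries ended both calls without repair (adjusted p = 0.122 for Myf5 and 0.200 for Myog). The Myog call with graft was lost without the muscle of 645.09 TPM (-0.98). Between 3 and 7 DPI 6 tests had an adjusted p under 0.05 within the fold limit. With graft the log2 difference was -0.92 for Myod1 (adjusted p = 0.000258), 0.67 for Pax7, 0.66 for Myf6 and 0.56 for Myf5 (adjusted p = 0.0061). Without repair it was 0.84 for Myf6 and -0.73 for Myod1. Single muscles decided 2 of them, as Myf6 without repair was called without the injured muscle of rat 11 (1.02) and Myod1 with graft without 1 muscle of 7 DPI (-1.07).

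The study asked whether a minced graft alters the response. No member was called between grafted and non-repaired injured muscle in non-running rats (0 of 24 tests with limma, 1 at an unadjusted p under 0.05). Of all genes 0.00883%, 0.0883%, 0.0265% and 0% were called on the 4 days. In running rats 0 of 24 were called (1 at an unadjusted p under 0.05), where 0%, 0%, 0.0177% and 0.0177% of all genes were. Averaged over running, a contrast added after the values were seen, 0 of 24 were called (3 at an unadjusted p under 0.05), beside 0%, 0.00883%, 0.0353% and 0.0177% of all genes. The 95% intervals of the members' log2 differences reached from -0.99 to 1.02 in non-running and from -1.01 to 1.29 in running rats, so graft effects up to and slightly past the fold limit were not excluded within either arm. Averaged over running they lay within -0.57 and 0.81. Pax7 at 7 DPI was at 1.5 to 6.36 TPM without repair and 3.08 to 7.48 TPM with graft, which overlap. Neither the difference of the graft effect between running and non-running rats nor that of the injury effect between repairs was called for a member with limma (0 of 24 each, and 0 at an unadjusted p under 0.05), where at most 0.00883% of all genes were called on a day.

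Against control muscle the grafted injury called members in 15 of 24 tests, where 58.5%, 54%, 32.5% and 25.5% of all genes were called. The control muscles are those of the comparison without repair, so a likeness to it is no separate evidence. Myog differed by 6.03, 5.89, 4.78 and 4.61, Myf5 by 2.30, 2.86, 1.97 and 1.74 and Pax7 by 1.37, 2.05, 1.68 and 1.32, called on all days. Myod1 was called at 3 and 28 DPI (1.53 and 1.18) and Myf6 at 7 DPI (1.52). With size factors 11 of the 15 calls were left: both Myod1 calls (0.24 and 0.44), that of Myf6 (0.31) and that of Pax7 at 3 DPI (0.70) were lost. Of all genes 44.7%, 40.6%, 26% and 17.6% were called with these factors. The Myod1 call at 28 DPI was also lost without the right muscle of control rat 38 (0.98), without rat 76 (0.83) or with all labelled libraries kept (adjusted p = 0.0581). Pax3 was called on no day (0.90, 0.92, 0.59 and 0.41) and passed the limit at 3 DPI without rat 91 (1.02) or rat 100 (1.04). With a pseudocount of 0.1 TPM it was called on all 4 days (2.54, 2.79, 2.13 and 1.66), where 66.6%, 62.7%, 46.3% and 41.5% of all genes were. These Pax3 calls are a description, since Pax3 passed the filter only through groups of injured muscle. Myf6 on the other days (0.86, 0.997 and 0.89) passed the limit when single control or injured muscles were left out (1.00 to 1.15). Against contralateral muscle 12 of 24 were called, with Myog between 3.52 and 4.72. Size factors left 9 of them, without Myod1 at 3 DPI (0.38) and 28 DPI (0.94) and Myf6 at 7 DPI (0.70). Of all genes 44%, 46.2%, 26.1% and 19.1% were called on TPM as deposited, and 37.5%, 34.9%, 19.5% and 13% with size factors. The Myod1 call against contralateral muscle at 3 DPI (1.08) was lost without the contralateral muscle of rat 14 (0.82), and it and that at 28 DPI were lost with all labelled libraries kept (adjusted p = 0.122 and 0.0702).

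Myog was the 1 member called between running and non-running rats. In contralateral muscle at 3 DPI Myog was at 33.36, 55.14, 81.68 and 87.06 TPM in running rats, all above the 18.65 to 24.27 TPM of non-running rats, and differed by 1.52 ± 0.33 on the log2 scale (adjusted p = 0.00419). It was the 1 call among 18 tests of the members at 3, 7 and 14 DPI, where 0.265%, 0.00883% and 0% of all genes were called. The call was lost without the contralateral muscle of rat 5 (1.20, adjusted p = 0.0993), with only the compared groups fitted (adjusted p = 0.115) and with all labelled libraries kept. Of 22 tested targets of differentiation 2 were also called higher, Cdkn1a, a cell cycle inhibitor, at 27.8 against 7.72 TPM, and Musk, a receptor of the neuromuscular junction, at 3.52 against 0.818 TPM. The summed myofibre markers were 178929 to 208964 TPM in these running muscles and 207326 to 239889 TPM in the non-running ones. Leukocyte markers overlapped.

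At 28 DPI the direction in injured muscle was the opposite. Myog was at 33.51, 36.74, 64.05 and 64.44 TPM in 4 running rats against 86.01 to 354.26 TPM with a median of 118 in 8 non-running rats, and the groups did not overlap. For each repair alone it was not called (log2 differences of -1.40, adjusted p = 0.316, and -1.56, adjusted p = 0.1), as for all members on all days (0 of 24 without repair, 7 at an unadjusted p under 0.05, and 0 of 24 with graft, 2 at an unadjusted p under 0.05). Of all genes 0.0441%, 0%, 0.0177% and 0.0177% were called without repair and 0% on each day with graft. With graft Myog was called without rat 83 (-1.79) or rat 88 (-2.02). Averaged over repair, a contrast added after the values were seen, Myog differed by -1.48 ± 0.28 (adjusted p = 0.00144), the 1 call among 24, where 0.0177%, 0%, 0% and 0.309% of all genes were called on the 4 days. It was lost without rat 85 (-1.28, adjusted p = 0.103) or rat 87 (-1.25, adjusted p = 0.105), with only the compared groups fitted (adjusted p = 0.38) and with all labelled libraries kept (adjusted p = 0.21).

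Of the 22 targets 7 were lower with it in running rats at 28 DPI, and none was higher. They were the acetylcholine receptor subunits Chrna1 (56.2 against 162 TPM), Chrnd (22.6 against 80.1 TPM) and Chrng (5.79 against 17.5 TPM), Musk (3.19 against 9.86 TPM), the fetal actin Actc1 (131.8 against 413 TPM), Cdkn1a (161 against 381 TPM) and the fusion gene Tmem8c (9.64 against 24.02 TPM). The median log2 difference of the 22 was -0.67 beside -0.09 for all tested genes. None of 12 cell cycle genes, 14 antagonists or 14 partners was called there, and 1 of 15 satellite cell markers was lower. The targets were listed for differentiation, and the receptor subunits and Musk are also known to respond to the motor nerve. Summed myofibre markers were 227848 to 244966 TPM in running and 169306 to 232323 TPM in non-running muscle.

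**Figure D3:**
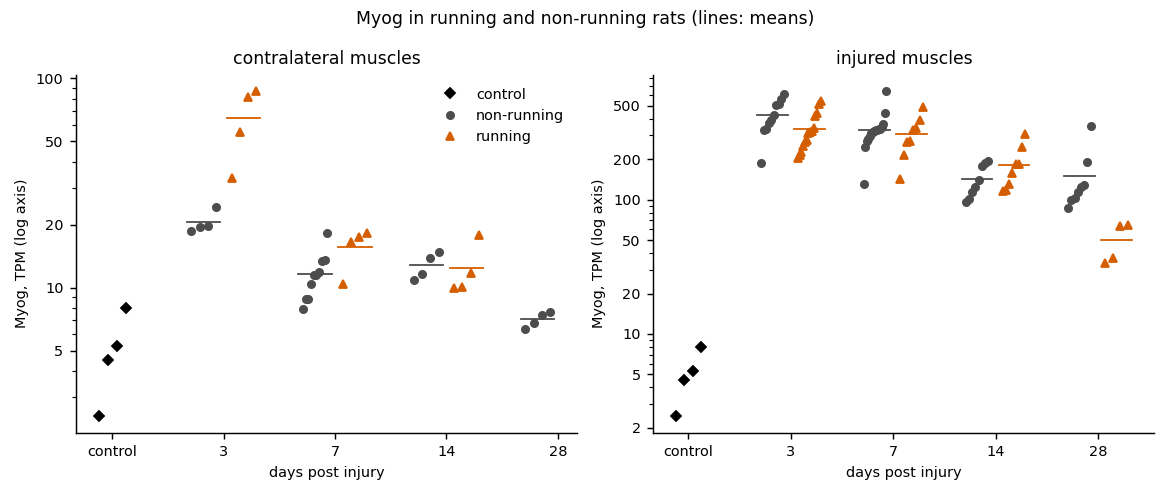
TPM of Myog (log axis) by days post injury in contralateral (left) and injured muscles (right) of non-running (grey circles) and running rats (orange triangles), with control muscles as diamonds and means as lines. Running rats sat above non-running ones in contralateral muscle at 3 DPI, 33.36 to 87.06 against 18.65 to 24.27 TPM, and below them in injured muscle at 28 DPI, 33.51 to 64.44 against 86.01 to 354.26 TPM.

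Pax3 showed a split that followed the number of the rat and no label of the study. At 3 DPI the 8 injured muscles of rats numbered above 90 had 0.04 to 0.20 TPM of Pax3, mean 0.119, and the 16 of rats numbered below 50 had 0.73 to 1.94 TPM, mean 1.45. The log2 difference was 1.17. It is a description with no test, since the ranges of rat number were chosen after these Pax3 values were seen and Pax3 passed the filter only through groups where it was high. Of all genes 0.494% were called between the ranges. The ranges of 0.238% of all genes did not overlap with the higher values below 50, and those of 0.362% with the higher values above 90. The ranges were apart in each of the 3 groups that hold both kinds of rat: 1.27 to 1.84 against 0.10 to 0.20 TPM in grafted non-running muscle, 1.45 to 1.94 against 0.08 to 0.17 TPM in grafted running muscle and 1.31 to 1.60 against 0.04 to 0.20 TPM in non-repaired running muscle. The non-repaired non-running group held only rats below 50. The other 5 members overlapped between the ranges, with the largest log2 difference in Myf5 (-0.50). Its values ran against those of Pax3 in these muscles (Pearson r of -0.604), so no p is given.

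The low Pax3 values reached into the control range of 0.03 to 0.11 TPM, while Myog in the same 8 muscles was at 205.35 to 421.36 TPM. At 7 DPI rats above 90 had 0.41 to 1.12 TPM of Pax3 and rats below 50 had 0.66 to 1.54 TPM, which overlap. Over the injured muscles of 3 DPI, Pnma3 also differed (1.18 against 0.045 TPM), with a Pearson r of 0.949 to Pax3 across muscles that share these 2 ranges. Of the 56 genes called between the ranges, the 10 with the largest log2 differences were Hmgn5, lower below 50 (0.960 against 10.6 TPM), and 9 that were higher there. These were Kera (19.5 against 2.38 TPM), Mmp3 (22.1 against 2.23 TPM), Ccl21 (142.5 against 26.6 TPM), Comp (22.6 against 4.17 TPM), Fmod (30.4 against 6.26 TPM), Tnmd (14.4 against 3.61 TPM), Rn5s (191 against 24.8 TPM), Mirlet7b (17.2 against 6.21 TPM) and Lbp (49.8 against 16.1 TPM). The libraries also stood apart in the number of symbols above 0 TPM, 12328 to 13150 above 90 and 13153 to 13594 below 50, while symbols above 1 TPM overlapped (10475 to 10646 and 10473 to 10744). The part of these differences in that of Pax3 was not tested. Leukocyte markers summed to 4146 to 5790 TPM above 90 and 4765 to 8057 TPM below 50, and myofibre markers to 40373 to 95180 and 24975 to 67642 TPM. What sets these rats apart was not tested. Without the 8 muscles the Myf5 call of running rats without repair against contralateral muscle at 3 DPI was lost (0.93). In turn 3 calls of Pax3 at 3 DPI were gained. They were with graft against control (1.21) and, in running rats against contralateral muscle, without repair (1.02) and with graft (1.16). As the muscles were left out after their low Pax3 was seen, these gains are no test.

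**Figure D4:**
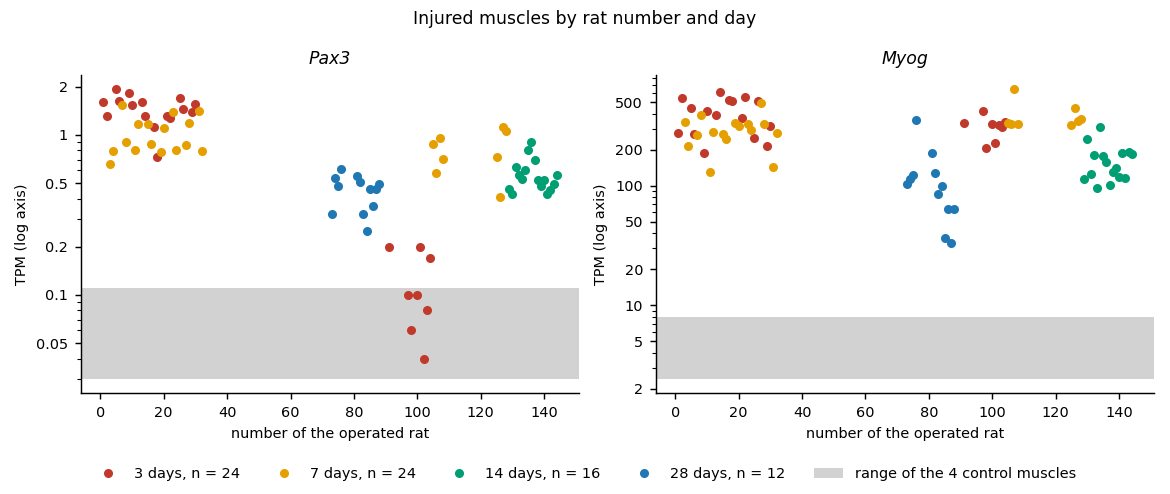
TPM (log axis) of Pax3 (left) and Myog (right) in the injured muscles, by the number of the rat and coloured by days post injury, with the range of the 4 control muscles shaded. At 3 DPI Pax3 was at 0.73 to 1.94 TPM in rats below 50 and at 0.04 to 0.20 TPM in rats above 90, while Myog was at 188.78 TPM or more in both.

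The surroundings of the factors were read from lists of known function, in non-repaired muscle against control at 3, 7, 14 and 28 DPI. On these days 48.3%, 45.6%, 25% and 21.1% of all genes were higher and 4.24%, 2.42%, 0.547% and 0.212% lower. Higher genes were thus 91.9%, 95%, 97.9% and 99% of the calls on TPM as deposited, against 59.2%, 60.6%, 72.8% and 78.4% with size factors, and the list counts given here are on TPM as deposited. Of 15 tested satellite cell markers 11, 10, 7 and 5 were higher and none lower, with a median log2 difference of 1.65 at 3 DPI. Ncam1, an adhesion molecule, led them at 4.81 and the chemokine receptor Cxcr4 followed at 3.98, and both were still called at 28 DPI (3.57 and 1.56). Of 14 partners and upstream regulators 3, 5, 5 and 3 were higher and 1 was lower at 3 DPI. The E proteins Tcf3, Tcf4 and Tcf12 (1.76 to 2.01) were the higher ones at 3 DPI, and Smarcd3, a subunit of a chromatin remodelling complex, was lower (-1.15). The median of the partners at 3 DPI, 0.19, was below that of all genes, 0.96.

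Of 14 antagonists 8, 10, 8 and 7 were higher. Snai1 (3.95) and Id2 (3.76), which keep myogenic factors from E-boxes, led at 3 DPI. Myostatin (Mstn), the secreted brake on muscle growth, was lower at 3, 7 and 14 DPI (-1.42, -2.03 and -1.02) and not called at 28 DPI (-0.59). Of 22 targets of differentiation 13, 15, 13 and 14 were higher and 2, 1, 0 and 0 lower, with a median of 3.41 at 3 DPI. The embryonic troponin Tnnt2 (7.30) and Cdkn1a (5.93) led, while the mature fibre genes Ckm (-2.27) and Mylpf (-1.90) were the lower ones. Tmem8c, the fusion protein myomaker, rose by 5.41, 6.55, 4.88 and 4.35 and the embryonic myosin Myh3 by 4.09, 5.76, 4.85 and 3.93. Both log2 differences were highest at 7 DPI. All 12 cell cycle genes were higher at 3 and 7 DPI, 8 at 14 DPI and 2 at 28 DPI, with Cdk1 at 5.72 and then 1.48.

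The cell type lists were counted in the same way. Of 16 myofibre markers 16, 10, 3 and 1 were lower, of 14 leukocyte markers 13, 13, 13 and 8 were higher, and all 10 fibroblast markers were higher on each day. Of 8 endothelial markers 5, 6, 4 and 2 were higher, of 5 Schwann cell markers 2, 2, 2 and 4, and of 5 adipocyte markers 1, 1, 1 and 4.

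Finally, each member was matched to the tested genes whose mean log2(TPM + 1) over the 31 groups was most like its own, by Pearson r and with no p, since groups share rats, days and library scaling. Myog was most like Traf3ip3 (0.991), Cidea (0.986) and Srgap2 (0.985), and Myf5 most like Spg21 (0.988), Runx1 (0.986) and Dhdds (0.985). Pax7 was nearest to Tril (0.968), Enho (0.966) and Ppfia4 (0.965), and Pax3 to Cd200 (0.979), Csrp1 (0.978) and Mtch1 (0.978). Myf6 was nearest to Kcnn3 (0.948), Jup (0.947) and Bre (0.944). Myod1 had the least similar neighbours, Cyp39a1 (0.881), Mocs1 (0.881) and Ddr1 (0.870). Among the members themselves Myf5 and Myog were most alike (0.970) and Pax7 and Myod1 least (0.611).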

How the data were processed

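TA muscle RNA was sequenced, and libraries of 114 muscles were kept. The authors quantified reads with kallisto against the Genbank-annotated rat genome and deposited TPM per gene symbol, and their processing notes also name DESeq. The last of 16182 rows of the table was incomplete and left out. Because only TPM were used, library depth is unknown and no counting error is given. Libraries were grouped by their labels, 9 with conflicting labels were left out, and those with fewer than 7000 symbols above 1 TPM were dropped. Libraries of one muscle were averaged, in 2 muscles.

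The 11328 genes whose average passed 1 TPM in any of 31 groups were compared on log2(TPM + 1) with limma 3.58.1 in R 4.3.3, with an intensity trend and all groups in one model (83 residual degrees of freedom). Pax3 exceeded 1 TPM on average in 5 groups, all of injured muscle at 3 or 7 DPI, Pax7 in 21 and the other members in 31. P-values were Benjamini-Hochberg adjusted over the tested genes of each of 70 comparisons, and calls needed an adjusted p under 0.05 and a log2 difference beyond 1, the limits of the study's methods. Contralateral comparisons with control and running were averaged over repair. Control muscles are pairs from 2 rats and were counted as 4 samples. Rats with both muscles link injured and contralateral samples: deviations from group means correlated at a mean r of 0.0944 over 34 such pairs (15 above 0.1), against -0.00871 between different rats.

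The members and gene lists were chosen with earlier results of these data known. Genes named are the 6 members, from each functional list the 2 highest and 2 lowest called genes without repair against control at 3 and 28 DPI, the 3 genes most alike to each member, and Tmem8c, Myh3 and Mstn. Called targets in running rats, and Pnma3 and the other genes compared between ranges of rat number, were named after their values were seen. Promoters came from a RefSeq table of GRCr8, which matched 5 of the 6 members and has no entry for Myod1. Alternatives were size factors, a pseudocount of 0.1 TPM, no filter, adjusted p alone, all labelled libraries, libraries unaveraged, control muscles per rat, the rat as a random block (statmod 1.5.0), a covariate for ranges of rat numbers, smaller models and each muscle left out in turn (100 fits). The code was tested on simulated data. Figures used Python 3.11.15, pandas 2.3.3 and matplotlib 3.10.9.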

Additional observations from a re-analysis of the deposited data

Results flagged for a closer look

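Single muscles stood far from the others of their group in 8 of 96 tested sets of 4 to 8 muscles, by the gap over the range of TPM. Some muscles were flagged for more than 1 member and the members vary together, so the count has no chance rate to be set against. A grafted, non-running muscle at 7 DPI had 645.09 TPM of Myog (next 365.09), 95.63 TPM of Myod1 (next 53.20) and 477.07 TPM of Myf6 (next 343.50). Rat 76, grafted and non-running at 28 DPI, had 354.26 TPM of Myog (next 123.43) and 142.77 TPM of Myod1 (next 61.42). Rat 81, without repair and non-running at 28 DPI, had 369.71 TPM of Myf6 (next 197.38). A grafted, running muscle at 14 DPI had 0.90 TPM of Pax3 (next 0.56), and rat 31, without repair and running at 7 DPI, had 111.39 TPM of Myf6, below the next value of 239.99.

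Of the 9 libraries placed in no group, 7 had more Myog than the highest control muscle (8.0 TPM). A contralateral library of rat 11, whose label gives 3 DPI where the rest of its rat has 7 DPI, had 11.26 TPM. For running rats 77 to 80 at 28 DPI, title and label contradict each other on which muscle was injured. Their libraries titled control had 59.74, 83.92, 82.51 and 63.39 TPM, in the order of the rats. Those titled injured had 8.67 TPM in rat 77 and 11.49 TPM in rat 80, and 6.40 and 5.74 TPM in rats 78 and 79, under the control maximum. The libraries titled control also had 345 to 1040 TPM of Col1a1 and 12.1 to 22.3 TPM of Tmem8c, and those titled injured 13.1 to 35.5 and 0.12 to 0.47 TPM. All 8 stay in no group.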

How the results depend on the processing

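No called result changed direction under any alternative run. The rat as a replicate block changed none of 420 member calls (16 of 24 stayed called without repair against control), and neither did fitting without the filter. With size factors 30 of 350 results of the 5 members other than Pax3 lost their call and none gained one. Pax3 was not tested there, as it did not pass the filter. The counts became 10 without repair and 11 with graft against control, 8 without repair and 9 with graft against contralateral muscle, 12 for running rats against contralateral muscle and 0 for later against earlier days. Without repair against control these factors called 41.3%, 36.1%, 21.7% and 14.7% of all genes at 3, 7, 14 and 28 DPI. With graft they called 44.7%, 40.6%, 26% and 17.6%. Against contralateral muscle the shares were 34.2%, 31.6%, 14.3% and 8.73% without repair and 37.5%, 34.9%, 19.5% and 13% with graft. Between days they were 0.671% to 6.63%. With adjusted p alone the counts became 23 with graft against control, 19 with graft against contralateral muscle, 11 for later days and 6 for later contralateral days. With all labelled libraries kept 16 of 420 results lost their call and 4 gained one, which left 1 call for contralateral against control, 1 for later days, 3 for later contralateral days (Myod1, Myog and Myf6 at 7 DPI, not Myog at 28 DPI) and 0 for running in contralateral muscle and for running averaged over repair. A pseudocount of 0.1 TPM added 25 calls, all of Pax3 and Pax7 except Myf6 with graft against control at 14 DPI, and ended none, so that contralateral against control had 5. With control muscles averaged per rat it had 1. With only the compared groups fitted 4 calls were lost, and both running contrasts of Myog had 0. Leaving out 1 muscle at a time gave 1 to 3 calls for contralateral against control and 0 to 1 for running in grafted, contralateral and repair-averaged muscle, and in all 27 of 4224 member results lost their call and 26 gained one. Causes of these changes were not tested. Low TPM limit Pax3 and Pax7, whose control values lie under the pseudocount, and contrasts of running at 28 DPI rest on 2 running rats for each repair.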
